A study of Lathyrus oleraceus with 16 samples.

Results

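With counts scaled by median-of-ratios size factors, a small group of genes was high in arrested shoot apical meristems of pea. These genes were about as high 24 h after deflowering and fruit removal. They numbered 25 of the 48559 gene IDs in the deposited count table. They were chosen by their group means in 4 kinds of meristem: high in Arrested and in Reactivated, low in Pruned and in Proliferative. With counts scaled by library totals instead, 4 of the 25 met the same conditions. All plants were wild-type pea (Pisum sativum, also called Lathyrus oleraceus) of the cultivar Cameor in long days (16 h light, 8 h dark). Proliferative apices came from young plants with a first flower bud and no open flower. Arrested apices (GPA in the titles) were taken as fruiting plants reached proliferative arrest. Pruned apices, of the same date, were from plants deflowered throughout, which never formed seeds and kept an active meristem. Reactivated apices came from arrested plants 24 h after every fruit and flower had been removed. Each group held 4 libraries described as biological replicates, 16 in all, with 16264221 to 24435174 counts each. The apices were dissected by eye, so leaf and bud tissue could be present, and fewer cells of a type and less RNA per cell cannot be told apart in such bulk samples.

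In many annual plants that flower repeatedly, developing seeds bring the production of new flowers to an end while the meristem is still intact. In Arabidopsis, proliferative arrest is known to depend on fruits with seeds and on the age pathway that includes FRUITFULL and APETALA2, and arrested meristems can resume growth when the fruits are taken away. Arrested apices of Arabidopsis have been likened to dormant buds in their expression. The pea IDs could not be given roles here. None of them, 0 of 48559, matched the RefSeq gene table of the assembly CAAS_Psat_ZW6_1.0, and the files do not pair IDs with names. Markers of the meristem or of neighbouring tissue were for the same reason not analysed here. Members are named by their rank in the difference between Arrested and Pruned, and 2 IDs are printed.

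The rule was applied to counts divided by size factors, here called normalized counts, and used L, the log2 of a group's mean normalized count plus 10. Of all IDs, 21289 had a Pruned mean of at least 20, and 2812 of these had an Arrested L at least 1 above both Pruned and Proliferative. Most of the 2812 did not stay up. Their median L in Reactivated lay 0.20 below Pruned, with quartiles of -0.61 and 0.23, and 1737 of them, 61.8%, were below the Pruned level. A further 678 lay less than 0.5 above Pruned and 253 between 0.5 and 1 above it, and 144, 5.12%, stayed at least 1 above it. With Proliferative as a second reference, 78 genes were at least 1 above both in Reactivated. Of these, 30 had Arrested and Reactivated within 0.5 of each other. The other 48 were mostly part way down, with 40 more than 0.5 below Arrested and 8 more than 0.5 above it. A last condition, that Pruned and Proliferative differ by at most 0.7, left 25 genes. The list was to be cut at 200, so every gene that met the rule is a member.

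**Figure D1:**
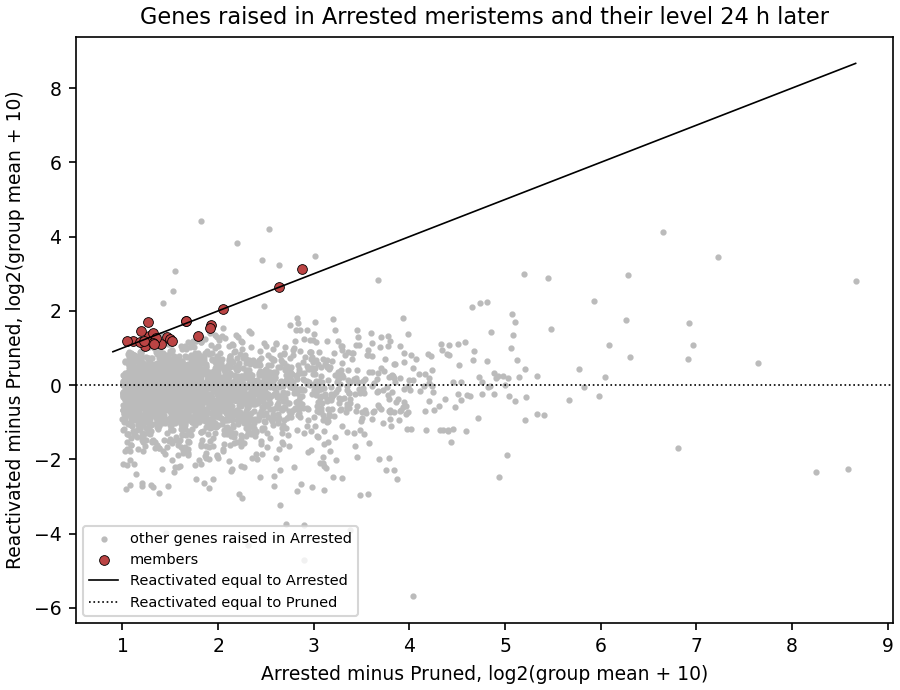
Each point is 1 of the 2812 genes raised in Arrested meristems, with Arrested minus Pruned on the x axis and Reactivated minus Pruned on the y axis, both as differences of log2(group mean + 10). The cloud is centred just below the dotted line of the Pruned level, and the 25 members lie along the solid line where Reactivated equals Arrested.

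The same rule turned upside down gave more genes. Of 4553 genes whose L in Arrested was at least 1 below both active references, 307 stayed low by the mirrored conditions, 6.74%, against 25 of 2812, 0.889%, for the genes that stayed high. Conversely, 1079 genes were at least 1 above both references in Reactivated, and 78 of them had been so in Arrested. Of the 2456 genes raised in Arrested with Pruned and Proliferative within 0.7, 1434 had Reactivated within 0.5 of Pruned. These counts describe the rule on these libraries and were not tested. The mirrored rule is not fully symmetric. The minimum applies to Pruned, which is the low side for genes staying high and the high side for genes staying low. Adding 10 also draws low levels together, which eases the condition within 0.5 for genes that fall. With library totals in place of size factors the 2 counts were 427 of 4020 staying low and 9 of 3523 staying high.

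The thresholds cut through a continuum. The lowest Pruned mean among members was 23.8 normalized counts, and 21 genes failed that minimum alone, the nearest at 19.9. The largest difference between Arrested and Reactivated within the group was 0.46, and 33 genes missed that condition alone, the nearest at 0.502. Arrested minus Pruned was 1.05 for the last member and 0.93 for the nearest gene outside. Arrested minus Proliferative was 1.01 inside and 0.97 outside. For Reactivated the nearest values were 1.06 and 0.93 against Pruned, and 1.02 and 0.99 against Proliferative. The widest gap between Pruned and Proliferative was 0.55 inside and 0.72 outside.

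Members were raised 2.15-fold to 7.89-fold in Arrested over Pruned, with a median of 2.86-fold, and 2.12-fold to 9.07-fold in Reactivated over Pruned, with a median of 2.68-fold. Over Proliferative the folds spanned 2.097 to 7.48 for Arrested and 2.11 to 8.12 for Reactivated. Only 3 members exceeded 2 in L over Pruned in Arrested, and 16 were under 1.5. The 2812 raised genes had a median of 1.72 in L over Pruned, and the members 1.35. Every member passed the filter on low counts. The smallest raw count of a member in any library was 12, in Pruned.

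Psat1g156920 ranked first by the difference in L between Arrested and Pruned. By fold of the means it came after the member ranked 2, at 7.58 against 7.89. Its normalized counts were 1242, 2155, 1940 and 3407 in Arrested and 2191, 1886, 3962 and 2427 in Reactivated. In Pruned they were 456, 372, 130.2 and 196, and in Proliferative 552, 193, 223 and 320. All Pruned and Proliferative libraries lay below the lowest Arrested library, although the libraries of each group were widely spread. The means were 2186 ± 903 in Arrested, 2617 ± 924 in Reactivated, 288 ± 151 in Pruned and 322 ± 163 in Proliferative (SD, n = 4 each). The log2 fold change fitted by edgeR was 2.89 with a standard error of 0.42 for Arrested over Pruned and 3.16 with a standard error of 0.42 for Reactivated over Pruned.

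Psat5g161440, ranked second, had fewer counts. It stood at 225, 255, 225 and 286 normalized counts in Arrested and at 375, 227, 259 and 136 in Reactivated. It stood at 34.8, 21.9, 38.7 and 30.3 in Pruned and at 36.5, 25.5, 34.5 and 36.04 in Proliferative. No library of the first 2 groups came near the last 2, and Reactivated 4 was the lowest of the high libraries. The means of Arrested and Reactivated, 248 ± 29.4 and 249 ± 98.8, were nearly equal. Those of Pruned and Proliferative were 31.4 ± 7.21 and 33.1 ± 5.16 (SD, n = 4). Its fitted log2 fold changes over Pruned were 2.94 with a standard error of 0.28 in Arrested and 2.95 with a standard error of 0.28 in Reactivated.

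The member ranked 3 had 230.3, 444, 368 and 540 normalized counts in Arrested and 538, 388, 436 and 209 in Reactivated. Its never-arrested libraries ran from 62.2 to 129, so the groups did not overlap. It shared with the second member a low Reactivated 4 and a high Reactivated 1. The member ranked 4 had 320, 212, 175 and 167 in Arrested and 164, 236, 126 and 165 in Reactivated. Its Proliferative libraries, at 69.3 to 81.7, all lay above its Pruned libraries, at 39.75 to 58.0. The member ranked 5 had 397 to 504 in Arrested, but in Reactivated 403, 234, 433 and 280.2, so that 2 Reactivated libraries lay within or near the Arrested range and 2 well below it.

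Among members ranked 6 to 9 the margin between the groups differed widely. The sixth, with an Arrested mean of 110.2 ± 25.2 and a Reactivated mean of 77.4 ± 26.0 (SD, n = 4), had the lowest value of Reactivated minus Arrested, -0.46 in L. Its lowest Reactivated library, at 38.83, barely exceeded its highest Proliferative library, at 38.66. The seventh was firmer, with 561, 652, 631 and 749 in Arrested, 720.3, 748, 637 and 607 in Reactivated, 155 to 243 in Pruned and 122 to 206 in Proliferative. The eighth overlapped: Reactivated 4 stood at 60.8 and Proliferative 1 at 63.0. The ninth had 124 to 135 in the 4 Reactivated libraries, with an SD of 4.70, all below its Arrested libraries at 139 to 184.

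The member ranked 10 had the most counts, which says nothing of its transcript level against other genes since lengths were not known. It had 3710, 3227, 3500 and 3555 normalized counts in Arrested and 3012, 2911, 3073 and 2656 in Reactivated. It had 1072, 1229, 1418 and 1222 in Pruned and 775, 961, 908 and 724 in Proliferative. Its 4 groups fell into a full order with no overlap, Arrested above Reactivated above Pruned above Proliferative. Its means were 3498 ± 201, 2913 ± 184, 1235 ± 141 and 842 ± 111 in that order (SD, n = 4). The other members with many counts were the first and the eighteenth, the latter with means of 2084 ± 759 in Arrested, 2134 ± 611 in Reactivated, 853 ± 283 in Pruned and 876 ± 244 in Proliferative (SD, n = 4).

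The middle member, ranked 13, was among the least clear. It had 90.2, 76.9, 65.97 and 138 in Arrested, 72.2, 132, 36.8 and 105 in Reactivated, 23.9, 48.7, 26.4 and 22.1 in Pruned and 36.5, 51.7, 29.5 and 12.9 in Proliferative. Its Reactivated 3 lay below Pruned 2 and Proliferative 2. The last member, ranked 25, had 266, 308, 292 and 249 in Arrested and 331, 221, 376 and 296 in Reactivated. It had 108 to 144 in Pruned and 87.0 to 165 in Proliferative, so its groups did not overlap, although its difference between Arrested and Pruned was the smallest of the members.

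**Figure D2:**
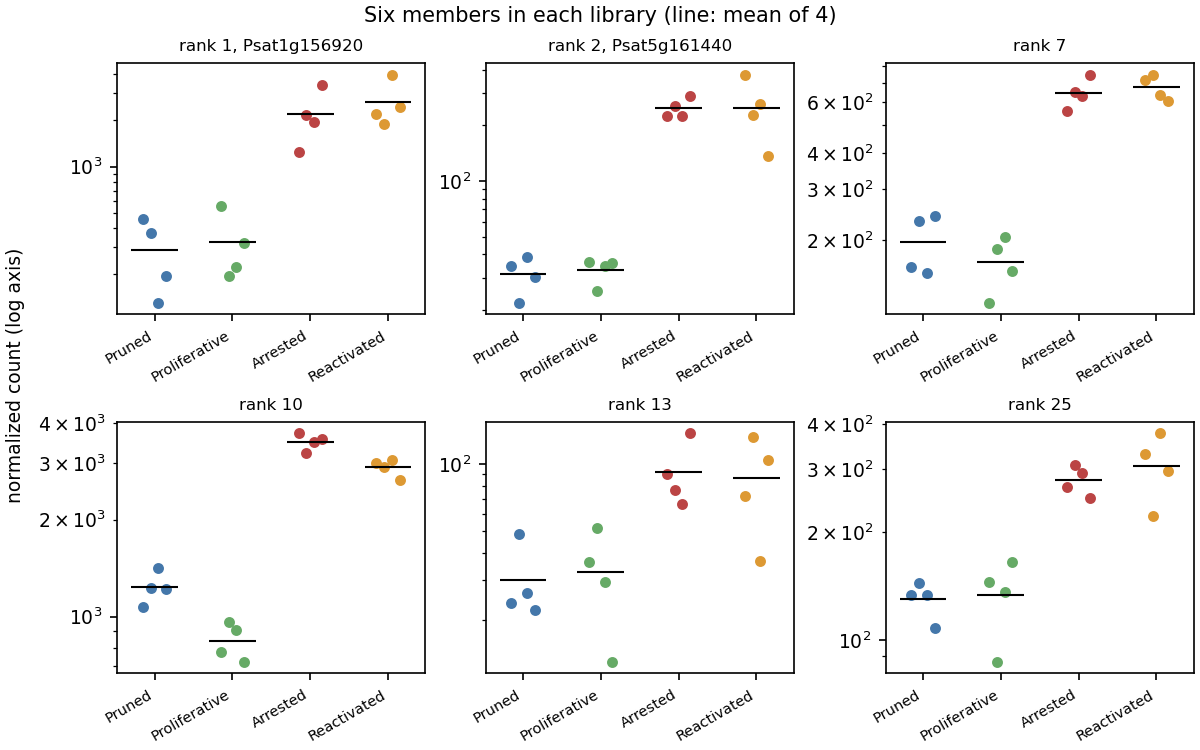
Normalized counts (log axis) of 6 members in each of the 16 libraries, by group, with points for libraries and a line for the mean of 4. Ranks 1, 2, 7, 10 and 25 show Arrested and Reactivated libraries above all Pruned and Proliferative libraries, and in rank 13 they overlap.

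In 21 of 25 members all 8 Arrested and Reactivated libraries lay above all 8 Pruned and Proliferative libraries, a separation found in 2.32% of the 23979 genes tested. The 4 that overlapped were ranked 8, 13, 15 and 22. All 4 had a Reactivated library as the lowest of the high side, while 23 members had every Arrested library above every Pruned and Proliferative library, as did 25.6% of all genes tested. In edgeR's quasi-likelihood test over all genes, all 25 members were called higher (Benjamini-Hochberg adjusted p under 0.05) in each of the 4 comparisons that the rule used. The share of all genes called higher was 31.6% for Arrested over Pruned, 30.6% for Arrested over Proliferative, 18.3% for Reactivated over Pruned and 18.5% for Reactivated over Proliferative. These comparisons share their Pruned and Proliferative libraries, and the counts follow from how the members were chosen. By calls alone, with no minimum of size or of level, 627 genes were higher in all 4 comparisons. Of the 627, 326 had no call between Reactivated and Arrested, 227 were lower in Reactivated and 74 were higher.

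**Figure D3:**
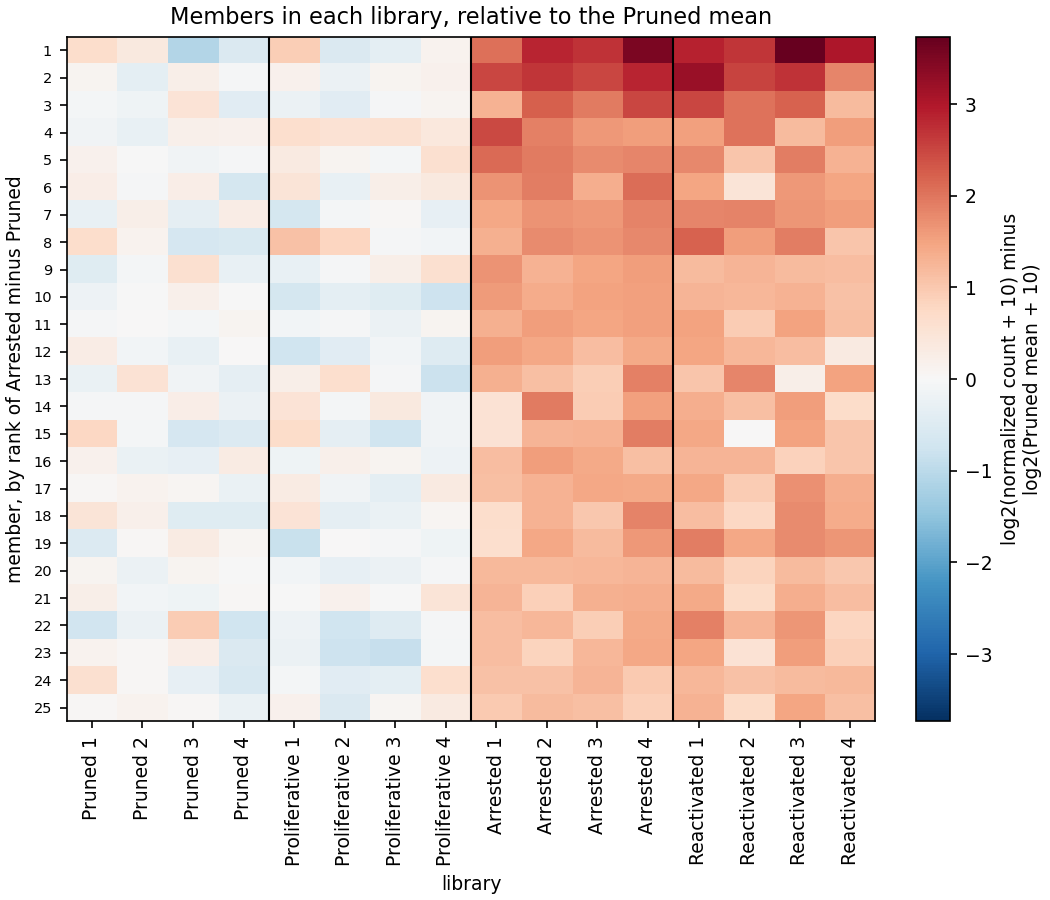
Each row is a member by rank and each column a library. The colour is log2(normalized count + 10) minus log2(Pruned mean + 10), red for higher and blue for lower. The 8 Arrested and Reactivated columns are red in nearly every row, with paler cells in Reactivated 2 for rank 15 and Reactivated 3 for rank 13.

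Between Arrested and Reactivated the members ranged from -0.46 to 0.44 in L, with a median of -0.04. Of the 25, 15 were lower and 10 higher in Reactivated, and 16 were within 0.25. The highest value was that of the member ranked 19, with means of 967 ± 265 in Arrested and 1317 ± 181 in Reactivated (SD, n = 4). The ranges of the 4 Arrested and the 4 Reactivated libraries overlapped in 22 members and in 31.5% of all genes tested, a closeness that the rule asked for. The test called 1 member, ranked 10, which was lower in Reactivated, while 72.0% of all genes tested were called in either direction. So few calls follow from the rule, which kept only genes with Arrested and Reactivated within 0.5 in L. Leaving out 1 library left 0 members called lower without Arrested 1, Arrested 3, Arrested 4, Reactivated 4, Pruned 2, Pruned 4, Proliferative 1 or Proliferative 3. It gave 2 called lower without Reactivated 1 or Reactivated 3, and 1 called higher without Arrested 4 or Proliferative 1. A missing call does not show that the levels were equal: the median standard error of these log2 fold changes was 0.24. Pruned and Proliferative differed by -0.53 to 0.55 in L, with the member ranked 10 called higher in Pruned, against 3.69% of all genes called in either direction.

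The spread between libraries was no condition of the rule, but it is not independent of the choice, which used the means of the same libraries. The median coefficient of variation of the members was 15.1% in Arrested, 26.7% in Reactivated, 23.0% in Pruned and 24.2% in Proliferative. Over the genes tested that met the minimum in Pruned, the medians were 14.7%, 17.2%, 19.2% and 19.5% in the same order. In Reactivated 18 of 25 members were above the median of all genes tested, 19.1%, and in Arrested 10 were above the corresponding 16.3%. With library totals and the medians on that scale, these counts were 14 in Reactivated and 9 in Arrested. With size factors the range within Reactivated was wide, from 3.67% for the member ranked 9 to 47.6% for the member ranked 13. Reactivated 3 was the highest of its group for 11 members and Reactivated 1 for 9, and Reactivated 2 was the lowest for 13 and Reactivated 4 for 9. The median member stood 1.56 above the Pruned mean in Reactivated 3 and 1.46 in Reactivated 1, against 1.23 in Reactivated 2 and 1.16 in Reactivated 4, on the log2 scale with 10 added. In Arrested the corresponding values ran from 1.30 in Arrested 1 to 1.56 in Arrested 4, which was the highest library for 14 members.

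Since the rule used every library, the pattern was tested on genes chosen without the libraries they were measured in. The rule was applied to the 8 libraries numbered 1 and 2, and the genes it chose were tested in the 8 libraries numbered 3 and 4, then the other way round. Each choice gave 31 genes, all of which passed the filter in the held-out libraries. Of the first 31, 14 are members, and of the second 31, 16 are. Most kept their direction. The first 31 were above Pruned in 31 cases for Arrested and 30 for Reactivated, and the second 31 in 30 cases for each. Above Proliferative, the first 31 counted 30 in Arrested and 29 in Reactivated, and the second 31 counted 30 and 31. Shares of all genes above each reference are not given. For the first choice, the median log2 fold changes of all genes were -0.13 and -0.084 for Arrested over Pruned and Proliferative, and -0.11 and -0.097 for Reactivated. For the second they were 0.036, -0.003, -0.0099 and -0.06 in the same order.

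Of the first 31 genes, edgeR called 25 higher in Arrested than Pruned in the held-out libraries (26.7% of all genes were), 26 higher in Arrested than Proliferative (24.8%), 19 higher in Reactivated than Pruned (15.7%) and 20 higher in Reactivated than Proliferative (12.6%). In all 4 comparisons 17 of 31 were called higher, against 1.25% of all genes. The median log2 fold changes were 1.36, 1.53, 1.07 and 1.16 in the order of the comparisons, each with a median standard error of 0.29 or 0.30. Leaving out Reactivated 3 brought the 17 down to 8 and the Reactivated calls to 11 over Pruned and 10 over Proliferative. Without Pruned 4, 12 were called higher in Reactivated than Pruned. With library totals in the test, 10 were called in all 4 comparisons, 12 in Reactivated over Pruned and 13 in Reactivated over Proliferative. Shares of all genes are not given for that fit. With library totals and all 16 libraries, they were 9.5% for Reactivated over Pruned and 9.52% for Reactivated over Proliferative.

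Of the second 31 genes, 22 were called higher in Arrested than Pruned in the held-out libraries (24.6% of all genes), 25 higher in Arrested than Proliferative (22.1%), 17 higher in Reactivated than Pruned (9.57%) and 20 higher in Reactivated than Proliferative (9.54%). In all 4 comparisons 16 of 31 were called higher, against 0.969% of all genes. The median log2 fold changes were 1.15, 1.36, 1.15 and 1.19 in the order of the comparisons, each with a median standard error of 0.32. The 16 became 10 without Arrested 2, 4 without Reactivated 1, 8 without Pruned 1 and 5 without Pruned 2. Calls in Reactivated over Pruned fell to 4 without Reactivated 1, 9 without Pruned 1 and 5 without Pruned 2, and those over Proliferative to 5 without Reactivated 1. Calls in Arrested over Pruned fell to 12 without Arrested 2 and 13 without Pruned 2, and those over Proliferative to 12 without Arrested 2 and 15 without Proliferative 2. In such fits 1 group keeps a single library, which is assumed to vary like the other groups.

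The rule's own thresholds were then applied to the held-out libraries. Arrested and Reactivated were both at least 1 in L above both references, at the Pruned minimum, in 14 of the first 31 genes (0.338% of all genes tested) and 12 of the second 31 (0.414%). In the held-out libraries 23 of the first 31 genes had Arrested and Reactivated within 0.5 in L, against 27.6% of all genes, and 8 had Reactivated more than 0.5 below Arrested. Among the second 31, 27 were within 0.5, against 27.5% of all genes, 3 were below and 1 was above. The test called 7 of the first 31 lower in Reactivated than Arrested, against 30.8% of all genes, and the median log2 fold change of all 31 was -0.30. These 7 became 3 without Arrested 4 or Reactivated 4 and 4 without Reactivated 3. It called 0 of the second 31 lower, against 28.6% of all genes, with a median over the 31 of -0.07. For that 0, edgeR gave 1 at an unadjusted p under 0.05, and DESeq2 also called 0. By edgeR, leaving out Reactivated 1 gave 2 such genes and leaving out Proliferative 1 gave 1. The number called higher in Reactivated was 0 of 31 in both choices by edgeR, with 0 at an unadjusted p under 0.05, and 0 by DESeq2. The share of all genes called higher is not given for these fits. The choice asked for Arrested and Reactivated within 0.5 in L in the other libraries, which favours few calls in either direction. The whole rule was met again in the held-out libraries by 9 of each 31 genes, against 0.128% of all genes in each case.

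**Figure D4:**
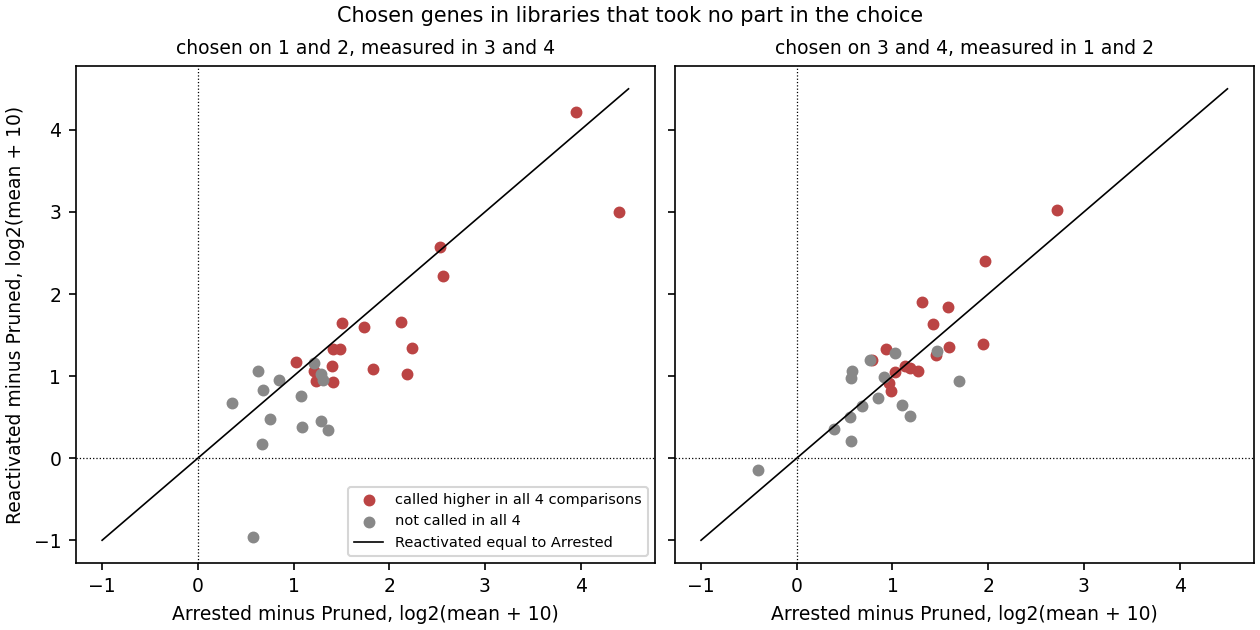
Each point is 1 of 31 genes, chosen on the libraries numbered 1 and 2 and measured in 3 and 4 (left), or the reverse (right). The axes are Arrested minus Pruned and Reactivated minus Pruned as differences of log2(mean + 10), and red points are the 17 and 16 genes called higher in all 4 comparisons. Most points lie in the upper right, and on the left more lie below the line of equality than above it.

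These are necessarily the same 9 genes, since each met the rule in both sets of libraries. All 9 are members, ranked 2, 3, 7, 10, 11, 14, 17, 20 and 21. Psat1g156920 was chosen on the libraries numbered 1 and 2 and was called higher in all 4 comparisons in the others, at 3.95 in L over Pruned in Arrested and 4.22 in Reactivated. It missed the rule there with Proliferative 0.703 above Pruned. The member ranked 20 had 962, 958, 977 and 993 normalized counts in Arrested and 943, 730.0, 935 and 828 in Reactivated. It had 437, 350, 432 and 405 in Pruned and 379, 326, 345 and 391 in Proliferative, with an SD of 15.7 in Arrested, the smallest relative spread of any member there. The member ranked 11 had means of 578 ± 42.2 in Arrested, 509 ± 97.8 in Reactivated, 202 ± 10.8 in Pruned and 194 ± 19.6 in Proliferative. The member ranked 17 had 855 ± 84.3, 899.6 ± 191, 337 ± 38.9 and 351 ± 82.0 in the same order (SD, n = 4 throughout). In all, 21 of 25 members were chosen on at least 1 set of 8 libraries, and those ranked 4, 8, 24 and 25 on neither.

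Single libraries also decided who was a member. When each of the 16 libraries was left out in turn, 21 to 36 genes met the rule, and 20 to 25 of the members were among them. In every one of these 16 choices 9 members stayed, those ranked 2, 3, 7, 10, 11, 16, 17, 22 and 23. Psat1g156920 left only without Arrested 4, its highest Arrested library, as did the member ranked 18. Those ranked 6, 14 and 15 were lost in 5 of the 16 choices each. Proliferative 3 and Pruned 2 had the most counts in genes too rare to be tested, which left 99.7% of their counts in tested genes against at least 99.9% in every other library. Without both, 25 genes met the rule and 20 of them were members.

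How much stayed high depended on how libraries were scaled. Size factors and TMM factors both assume that most genes do not change or change in balance, and gave nearly the same picture, with 23 of 25 members meeting the rule under TMM. With TMM factors edgeR called 72.0% of all genes tested between Reactivated and Arrested. Whether these changes were in balance was not tested. With library totals, Reactivated minus Arrested had a median of -0.50 in L over all genes tested, against -0.01 with size factors. The members' median was -0.58 with library totals and -0.04 with size factors. With library totals 4 members met the rule and 7 had Arrested and Reactivated within 0.5. Reactivated was then at least 1 above both references in 6 members. All 25 remained higher in Reactivated than in Pruned and in Proliferative, by medians of 0.92 and 0.86. The smallest difference from Pruned was 0.66. Members had been chosen at least 1 above both references with size factors. The shift of scale was smaller than that: over all genes tested, the median of Reactivated minus Pruned went from -0.04 to -0.40. That all 25 stayed higher, and most of the calls that follow, therefore come from the choice. With library totals edgeR called 24 members higher in Reactivated than Pruned (9.5% of all genes), 22 higher than Proliferative (9.52%) and 14 lower than Arrested (49.5%).

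**Figure D5:**
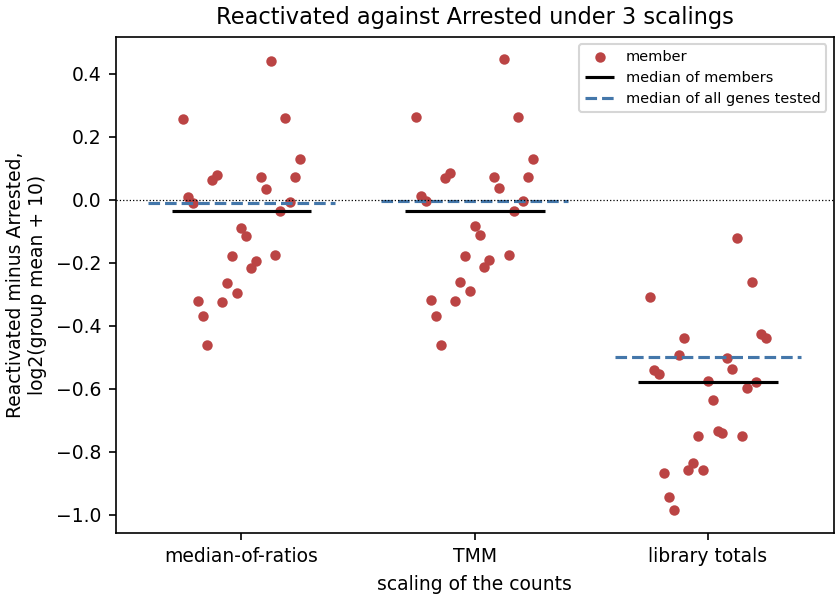
Reactivated minus Arrested of the 25 members, as a difference of log2(group mean + 10), under 3 scalings of the counts. Points are members in rank order, the black line is their median and the dashed blue line the median of all genes tested, and with library totals both medians drop to -0.58 and -0.50.

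The members together made up a small part of the sequenced RNA. Their share of all counts was 0.0963% ± 0.00917 in Arrested, 0.0637% ± 0.00741 in Reactivated, 0.0284% ± 0.000884 in Pruned and 0.0259% ± 0.00108 in Proliferative (SD, n = 4). On this scale, which is that of library totals, every Reactivated library, at 0.0569% to 0.0727%, lay below every Arrested library, at 0.0886% to 0.109%, and above every Pruned library, at 0.0274% to 0.0295%. Members were chosen in these same libraries for high means in Arrested and Reactivated, so the separation from Pruned follows from the choice. Without the member with the most counts the shares were 0.0752%, 0.0519%, 0.0217% and 0.0213% in the same order. The members ranked 1 and 18, also with many counts, stayed in these sums.

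Within groups, highly correlated pairs of members were about as frequent as among all genes. Deviations from the group means were correlated over the 16 libraries for each of the 300 pairs of members, on the log2 scale with 10 added. The median r was 0.15, and 15 pairs, 5%, exceeded 0.7. Over all pairs of the 21148 tested genes that met the minimum in Pruned the median was 0.002 and 4.45% exceeded 0.7. A trio stood out, with r of 0.95 between the members ranked 1 and 18, 0.89 between those ranked 15 and 18 and 0.85 between those ranked 1 and 15. In rank 1 and rank 18 the libraries kept almost the same order: Arrested 4 and Reactivated 3 were the highest of their groups, and Pruned 1 and Proliferative 1 were the highest of theirs. The member ranked 18 had 1355, 2121, 1739 and 3122 normalized counts in Arrested, 1916, 1468, 2919 and 2235 in Reactivated, 1193, 979, 622 and 618 in Pruned and 1212, 670.2, 722 and 900.2 in Proliferative. The members ranked 2 and 3 were correlated at 0.80. These correlations share library and depth, rest on 16 points of which the group means were removed, and are given as a description.

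The members were scattered over the gene IDs. Of the 25, 5 had IDs that begin with Psat1g, 5 with Psat4g, 4 with Psat7g, 3 with Psat2g, 3 with Psat0s, 2 with Psat5g, 2 with Psat6g and 1 with Psat3g. Psat1g held 20% of members and 11.8% of genes tested, and Psat3g held 4% and 10.9%. No member stood next to another in the order of IDs, and none within 5 IDs. With 25 members among 48559 IDs, hardly any neighbours would be found for genes drawn at random, so this says little about the members. Reads from a near-identical copy elsewhere, or from an antisense or overlapping gene, could not be told apart, since the counts were made without regard to strand although the libraries are described as strand-specific.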

How the data were processed

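The authors deposited raw counts of reads per gene as 1 table of 16 libraries, with 0 rows that name no gene. The submitters' processing notes name HTSeq, HISAT2, cutadapt and DESeq2, without versions or roles. Counting ignored strand, per the deposited table's name, and the genome build is not given in the sources used here. Normalized counts are the counts divided by median-of-ratios size factors. Tests used edgeR 4.0.16 in R 4.3.3 on the raw counts: filterByExpr by group (23979 genes kept), TMM factors, and quasi-likelihood tests with group as the only term and all 16 libraries in the fit. Calls are at a Benjamini-Hochberg adjusted p under 0.05. A standard error is the log2 fold change divided by the square root of F. Held-out tests fitted the 8 libraries that took no part in the choice. DESeq2 1.42.0 was an alternative. The fit and the rule were also run on simulated counts with the same dispersion for every gene, a simpler setting than these data. Their outcome is not reported here.

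The members and tests were chosen with earlier results of these data known. The 2 IDs printed are those with the largest difference in L between Arrested and Pruned. Members ranked 1 to 10, 13 and 25 and the 3 with the most counts were to be described by a set rule, and the others singled out were chosen after their values were seen. The 18 gene lists prepared rest on names or descriptions and were not run. No library was a duplicate of another in its group: counts of any 2 libraries in a group differed by at least 11.5 times the sampling variance. Replicate numbers were not taken as pairing, since same-numbered libraries of different groups had deviations correlated at -0.41 to 0.68. The replicates are called biological, but nothing says which plants each held. The p-values therefore weigh group differences against the spread between these libraries, not against a known spread between plants.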

Additional observations from a re-analysis of the deposited data

Results flagged for a closer look

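Of 60 groups of 4 libraries looked at, for the members described singly, 2 held a library far from the other 3, where chance gives about 1 in 20. In the member ranked 6, Reactivated 2 stood at 38.8 normalized counts and the other Reactivated libraries at 86.6 to 96.2. In the member ranked 13, Pruned 2 stood at 48.7 and the other Pruned libraries at 22.1 to 26.4. Reactivated 2 was also the lowest Reactivated library for 13 of the 25 members.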

How the results depend on the processing

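With library totals 9 genes met the rule, 4 of them members. A Pruned minimum of 50 left 16 genes, all 16 members, and group medians gave 40 genes. Leaving out 1 library gave 21 to 36 genes with 20 to 25 members.

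Members called between Reactivated and Arrested numbered 14 with library totals, all lower, 4 when only the 2 groups were fitted, and 0 with no filter on low counts or without both libraries richest in rare genes (Pruned 2 and Proliferative 3, a choice made after seeing the data). Those called between Pruned and Proliferative became 0 with only the 2 groups fitted and 0 without both of these libraries. Leaving out 1 library gave 0 to 2 members called between Reactivated and Arrested.

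For genes chosen on replicates 1 and 2, library totals in the test gave 12 calls for Reactivated over Pruned, 13 over Proliferative, 20 for Reactivated below Arrested and 10 in all 4 comparisons. No share of all genes is given for this held-out fit. In the fit of all 16 libraries with library totals, the shares were 9.5% over Pruned, 9.52% over Proliferative and 49.5% below Arrested. These calls are therefore not read as particular to the chosen genes. Library totals in the choice left 11 genes, with 7 and 9 calls for Arrested over Pruned and Proliferative, 8 and 9 for Reactivated, 7 in all 4, and 0 lower and 1 higher in Reactivated than Arrested. Leaving out 1 library gave 20 to 25 and 20 to 26 calls for Arrested over Pruned and Proliferative, 11 to 25 and 10 to 20 for Reactivated, 3 to 7 for Reactivated below Arrested and 8 to 16 in all 4.

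For genes chosen on replicates 3 and 4, library totals in the test gave 12 lower in Reactivated than Arrested. The share of all genes is not given for this fit either, and was 49.5% in the fit of all 16 libraries. Library totals in the choice left 9 genes, with 5 and 6 calls for Arrested over Pruned and Proliferative, 5 and 5 for Reactivated, 4 in all 4, and 0 lower and 1 higher in Reactivated than Arrested. Leaving out 1 library gave 12 to 24 and 12 to 22 calls for Arrested, 4 to 18 and 5 to 18 for Reactivated, 0 to 2 for Reactivated below Arrested and 4 to 16 in all 4. Fewer genes entered the tests where the choice changed; the cause of the other differences was not tested.

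The replicate number as a block gave 1 held-out gene chosen on replicates 3 and 4 lower in Reactivated than Arrested, and 13 and 17 genes higher in all 4 comparisons for the first and second choice. Of the members it called 1 between Reactivated and Arrested, higher instead of lower. Same-numbered libraries had deviations correlated at a mean of -0.05, with single values of -0.41 to 0.68. Libraries of different numbers had a mean of 0.016, with single values of -0.64 to 0.63. The 0.016 is tied to the -0.05, since deviations cancel out within a group. The numbers are not taken to pair the libraries.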
